A study of Mus musculus with 2 samples.

Results

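The replication-dependent histone genes of the mouse encode the linker histone H1 and the core histones H2A, H2B, H3 and H4. They were chosen by gene symbol (H1f1 to H1f5, and H2ac, H2bc, H3c or H4c followed by a number), with 1 pseudogene left out. The rule found 62 of the 24532 gene IDs in the tables, of which 52 lie on chromosome 13 and 10 on chromosome 3. In 4 pairs the gene IDs are annotated at the same or overlapping places (H2ac18 and H2ac19, H2ac23 and H2ac24, H3c14 and H3c15, H4c17 and H4c18), and their values were summed, which left 58 genes. Of these, 55 reached at least 1 TPM (a level per transcript length, scaled to the same total in each library) in at least 1 library. The other 3 were H2ac21, with 0.325 and 0.448 TPM in the wild-type-labelled and KO-labelled libraries, and the testis genes H2ac1 and H2bc1, which were at 0.0415 TPM or less in both.

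These genes supply the histones that package newly copied DNA, and their mRNA builds up in S phase and is destroyed when replication ends. The mRNA has no poly(A) tail. It ends just after a short stem-loop that is bound by SLBP and is cut with the help of the U7 small nuclear RNA, in contrast to the mRNA of replacement histones such as H3f3a, which is polyadenylated and made throughout the cell cycle. A developing thymocyte divides quickly before and as it becomes double-positive, and then rests while its T cell receptor is selected.

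The cells were CD69+ double-positive (DP) thymocytes, which carry both CD4 and CD8 and have gained CD69 after a receptor signal, sorted from the thymus of C57BL/6 mice aged 6 weeks. There were 2 libraries, 1 from NSRP1f/f mice (labelled wild-type) and 1 from NSRP1f/fCD4Cre mice (labelled KO), so that the floxed alleles are shared and the groups differ in the CD4-Cre transgene, which is active from the DP stage. The study asked how RNA levels change when the splicing factor NSrp70, the product of Nsrp1, is lost in these cells. How many mice went into a library is not stated in the labels. Since each genotype has 1 library, no difference here has a replicate check and no test was made. The bracketed 95% intervals are exact intervals from estimated read pairs and cover counting error only. Where a pair of values is given, the first is that of the wild-type-labelled library and the second that of the KO-labelled library.

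Covered bases on annotated exons came to 4199 and 5076 megabases. Nsrp1 itself stood at 29.7 and 29.6 TPM, so that its RNA level does not bear out the KO label, and every direction here is between 2 labelled libraries. Xist stood at 202 and 76.3 TPM and Ddx3y at 31.1 and 71.2 TPM, so both libraries held RNA of both sexes in unequal shares, and sex and genotype cannot be told apart. All 10 DP markers were measured and summed to 6018 and 6446 TPM. Markers of other cells were far lower: they summed to 90.6 and 76.7 TPM for earlier thymocytes, 118 and 99.5 TPM for myeloid cells, 54.0 and 62.5 TPM for B cells, and under 10 TPM in both libraries for dendritic, epithelial and erythroid cells. Of the markers matched, 6 of 7 of the earlier thymocytes, 6 of 8 myeloid and 5 of 6 B cell genes reached 1 TPM. So did 3 of 5 dendritic, 1 of 5 epithelial and 1 of 7 erythroid genes. The epithelial genes Krt5, Krt8 and Foxn1 and the globin genes Hbb-bt and Hba-a1 were at 0 in both libraries. Of the other globin genes, Hba-a2 stood at 0.510 and 1.91 TPM and Hbb-bs at 0 and 0.562 TPM, both with more in the KO-labelled library. The part of these cells in the histone values was not tested. In bulk RNA, fewer cells of a kind and less RNA per cell cannot be told apart.

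The stem-loop is shown because it is what sets these mRNAs apart from nearly all others. Its 16 bases were found in the annotated transcripts of 44 of the 62 genes, where it ended 4 to 7 bases before an annotated 3' end. For 17 others the last bases of at least 1 transcript could not be read. H2bc4 and H2bc23 are among these, and a longer transcript of each was read to its end and held no such loop. For 1, H2bc21, the end of its only transcript was read and held none either. The sequences below are those of the 6 genes whose level was lower in the KO-labelled library by a rule of size (a log2 fold change of -1 or less, called the fold here), and of the most abundant H2A gene pair, from GENCODE M21 transcripts (GRCm38, which is mm10), with the 16 bases in capitals.
H1f2, chr13:23739512-23739527, plus strand: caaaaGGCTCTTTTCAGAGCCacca
H1f3, chr13:23555787-23555802, plus strand: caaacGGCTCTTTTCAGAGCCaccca
H2ac18, chr3:96239784-96239799, minus strand: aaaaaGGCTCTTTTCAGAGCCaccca
H2bc18, chr3:96270171-96270186, plus strand: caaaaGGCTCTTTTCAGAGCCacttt
H3c13, chr3:96269135-96269150, plus strand: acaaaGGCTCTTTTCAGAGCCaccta
H4c18, chr13:21831798-21831813, minus strand: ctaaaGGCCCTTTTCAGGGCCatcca
H4c9, chr13:22040966-22040981, minus strand: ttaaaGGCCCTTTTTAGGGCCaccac
The loop of the first 5 was the commonest form, held by 26 genes of the H1, H2A, H2B and H3 classes. That of H4c18 was held by 6 H4 genes, and that of H4c9 by H4c9 and H4c14 only. The same form stood on genes past the fold and on genes within it: H2ac18 and H1f2 share their 16 bases, and H2ac18 with its copy was within the fold.

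The summed level of the histone genes was lower in the KO-labelled library. Of the class sums, those of the linker histone H1 and of H4 had the lowest ratios. The summed level of all 58 genes was 384 TPM (368 to 402) and 273 TPM (261 to 286), a ratio of 0.710 (0.667 to 0.756). The median log2 fold change, taken as log2((TPM + 1) in the KO-labelled library over (TPM + 1) in the other), was -0.21 over the 55 measured genes, against -0.07 over all 12027 genes tested. Of the 55, 37 were below 0, and 61.5% of all genes tested were, so this count stands near the background. By the rule of size 6 were lower (1.36% of all genes tested were), and 0 were higher (0.649% of all genes tested were). The 6 were H1f3, H4c17/H4c18, H1f2, H2bc18, H3c13 and H4c9.

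**Figure D1:**
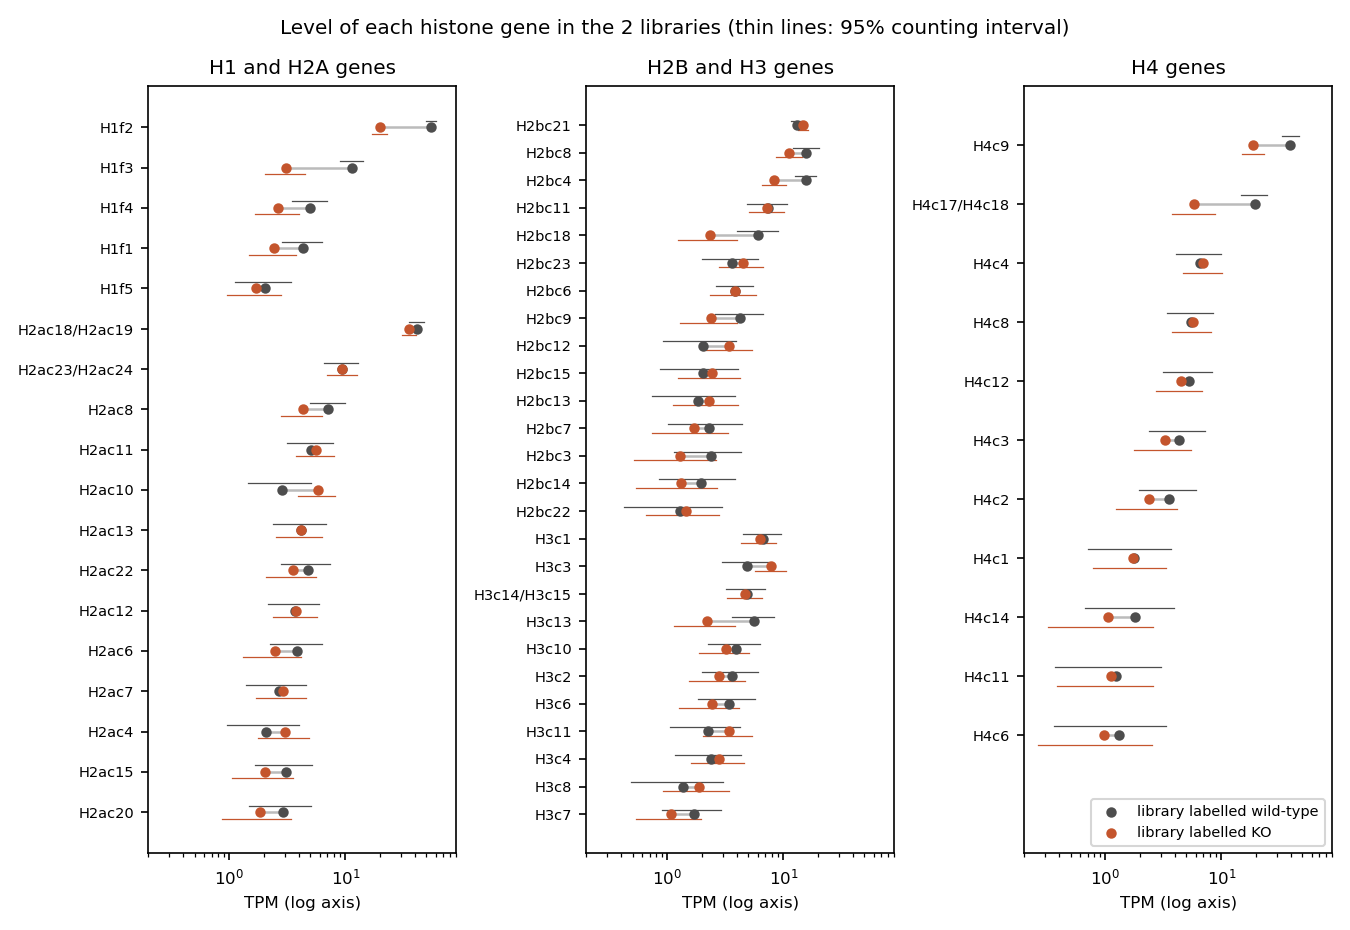
TPM (log axis) of each measured histone gene in the wild-type-labelled library (grey) and the KO-labelled library (orange), with thin lines for the 95% exact Poisson counting interval; genes of a class are ordered by mean level. The points of H1f2, H1f3, H4c9 and H4c17/H4c18 lie well apart, and those of most H2A, H2B and H3 genes lie within each other's intervals.

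Genes of the linker histone H1, which sits where DNA enters and leaves the nucleosome and helps chromatin fold, were the lowest class in the KO-labelled library. All 5 were below 0, with a median log2 fold change of -0.72. H1f2 (older symbol Hist1h1c), 1 exon at chr13:23738807-23739531 on the plus strand, had levels of 54.9 TPM (49.2 to 61.0) under the wild-type label and 19.7 TPM (16.8 to 23.1) under the KO label. It was the most abundant of the 58 genes in the wild-type-labelled library, and its intervals did not overlap: 344 and 160 read pairs gave a 2.78-fold lower level (2.30 to 3.37), a log2 fold change of -1.43. H1f3 (chr13:23555032-23555807, plus strand) stood at 11.4 TPM (8.96 to 14.2) and 3.08 TPM (2.03 to 4.49), which is 3.69-fold lower (2.34 to 5.96) on 76.3 and 26.7 read pairs. Its log2 fold change of -1.60 was the lowest of any measured histone gene.

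The other 3 H1 genes were within the fold. H1f4 stood at 4.99 and 2.64 TPM (log2 fold change -0.72), and the interval of its ratio, 0.297 to 0.924, lay below 1. H1f1 stood at 4.30 and 2.41 TPM (-0.64). H1f5 stood at 2.03 and 1.69 TPM (-0.17), and the ratio intervals of these last 2 included 1. Summed without H1f2, the 4 other H1 genes still stood at 22.7 and 9.82 TPM, a ratio of 0.433 (0.328 to 0.569). H1f2 shared 19.1% and H1f3 22.4% of their 50-base words with other genes of the 58, mostly each other or H1f4. H1f1 and H1f5 shared 0%, though genes outside the 58 were not searched.

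The promoters of the H1 genes are shown because all 5 genes lay below 0 and because H1 genes are known for a promoter element of their own, the H1 box, upstream of the CCAAT box they share with other histone genes. Each line is the 128 bases before the RefSeq start (GRCm38.p6) and the first 2 after it, on the gene's own strand. Capitals mark AAACACA (the H1 box), CCAAT and TATAAA on either strand (ATTGG is CCAAT on the other strand).
H1f1, chr13:23763540-23763669, plus strand: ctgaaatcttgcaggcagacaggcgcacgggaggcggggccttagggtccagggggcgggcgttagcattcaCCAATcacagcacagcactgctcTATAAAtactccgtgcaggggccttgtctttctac
H1f2, chr13:23738679-23738808, plus strand: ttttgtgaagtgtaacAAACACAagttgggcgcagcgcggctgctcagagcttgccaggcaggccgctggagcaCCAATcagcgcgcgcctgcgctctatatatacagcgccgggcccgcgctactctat
H1f3, chr13:23554904-23555033, plus strand: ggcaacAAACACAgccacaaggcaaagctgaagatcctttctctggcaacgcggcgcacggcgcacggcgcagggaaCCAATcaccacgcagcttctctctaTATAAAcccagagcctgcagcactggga
H1f4, chr13:23622557-23622686, minus strand: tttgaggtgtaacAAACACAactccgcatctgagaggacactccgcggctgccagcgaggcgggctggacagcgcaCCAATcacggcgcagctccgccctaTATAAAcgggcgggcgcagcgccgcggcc
H1f5, chr13:21780624-21780753, minus strand: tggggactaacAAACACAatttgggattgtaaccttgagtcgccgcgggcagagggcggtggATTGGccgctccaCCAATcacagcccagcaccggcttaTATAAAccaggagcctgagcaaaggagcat
In the full RefSeq promoter windows (250 bases before to 50 after the start; both strands searched), AAACACA was in 4 of the 5 H1 genes and in 8.22% of all 27025 promoters. It began 112 bases before the start in H1f2, 122 in H1f3, 115 in H1f4 and 117 in H1f5. H1f3, the gene with the lowest fold change, has this element. H1f5, which also has it, had the fold change nearest 0 of the 5 (-0.17), with a ratio interval of 0.375 to 1.87. H1f1, which lacks it, was below 0 (-0.64) with a ratio interval that included 1 (0.298 to 1.03). RefSeq promoters were matched for 5 H1, 17 H2A, 14 H2B, 10 H3 and 11 H4 genes. CCAAT was in all of those of the H1, H2A, H2B and H3 genes and in 3 of the 11 of H4 genes, against 41.1% of all promoters. TATAAA was in 4 of 5 H1, 11 of 17 H2A, 7 of 14 H2B, 4 of 10 H3 and 8 of 11 H4 promoters, against 15.7% of all. ATTTGCAT, the octamer known from H2B promoters, was in 7 of 14 H2B and 6 of 17 H2A promoters and 1.97% of all. CCAAT was rarer in the H4 promoters than in those of the other classes. The part of these promoter elements in the histone values was not tested.

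H4 genes, whose protein pairs with H3 at the core of the nucleosome, came next. Of 11, 9 were below 0 and the median log2 fold change was -0.23, and most of the difference in their sum lay in H4c9 and H4c17/H4c18. H4c18 is annotated at chr13:21811784-21812149 and again at chr13:21831793-21832158, in a repeated stretch of the cluster, and H4c17 overlaps the first of these places. Summed, they stood at 19.5 TPM (14.9 to 25.0) and 5.86 TPM (3.75 to 8.72). This is 3.32-fold lower (2.04 to 5.57), on 61.6 and 23.9 read pairs, with a log2 fold change of -1.58. H4c9 (chr13:22040960-22041362, minus strand) stood at 39.4 TPM (33.1 to 46.6) and 18.8 TPM (15.0 to 23.2), which is 2.10-fold lower (1.59 to 2.79) and a log2 fold change of -1.03. Its intervals did not overlap, but it did not pass the rule on other scales. The log2 fold change was -0.89 with 1 added to FPKM (a level per length scaled to the fragments sequenced) and -0.97 after rescaling to the median gene. H4c9 shared 52.8% of its words with other genes of the 58 and H4c17/H4c18 40.3%, so the split of reads between them is uncertain.

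None of the other 9 H4 genes passed the fold, and all their ratio intervals included 1. H4c4 stood at 6.52 and 6.97 TPM. H4c8 stood at 5.46 and 5.64 TPM. These were the 2 H4 genes above 0, with log2 fold changes of 0.08 and 0.04. H4c12 stood at 5.24 and 4.44 TPM. H4c3 stood at 4.31 and 3.24 TPM. H4c2 stood at 3.56 and 2.38 TPM. All 3 were below 0, from -0.20 to -0.43. H4c14, the H4 gene of chromosome 3, stood at 1.80 and 1.06 TPM (-0.45). H4c1 stood at 1.77 and 1.74 TPM. H4c6 stood at 1.31 and 0.977 TPM. H4c11, at 1.22 and 1.12 TPM, completed the class, and these last 3 rested on under 10 read pairs in each library.

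H2A genes, whose protein forms dimers with H2B, had no member past the fold. The median log2 fold change of the 13 measured genes was -0.02, close to that of all genes tested (-0.07), with 7 below and 6 above 0. H2ac18/H2ac19, annotated at chr3:96239779-96240334 and chr3:96245497-96246052, was the most abundant, at 41.2 TPM (35.7 to 47.4) and 35.5 TPM (31.0 to 40.4) (-0.21). The sum is needed here: taken separately, H2ac18 stood at 41.2 and 19.2 TPM and H2ac19 at 0.0538 and 16.2 TPM, on transcripts that share nearly their whole length. That split was made by the authors' quantification between nested annotations, and it gives the 2 symbols opposite differences that their sum does not show.

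The next H2A genes by level were H2ac23/H2ac24 and H2ac8. H2ac23/H2ac24 stood at 9.33 and 9.41 TPM (0.01). H2ac8 stood at 7.14 and 4.27 TPM (-0.63), the lowest fold change of the class, with a ratio interval of 0.346 to 1.02. H2ac11 stood at 5.09 and 5.57 TPM. H2ac23/H2ac24 and H2ac11, which differed least of these, shared 74.7% and 82.3% of their words with other genes of the 58. H2ac22 stood at 4.72 and 3.53 TPM. H2ac13 stood at 4.17 and 4.11 TPM. H2ac6 stood at 3.86 and 2.46 TPM. Of these, H2ac6 had the lowest log2 fold change, -0.49. H2ac12 stood at 3.71 and 3.78 TPM. H2ac15 stood at 3.05 and 2.02 TPM. H2ac20, from chromosome 3, stood at 2.89 and 1.83 TPM (-0.46). None of these differences was beyond counting error, since every H2A ratio interval included 1. H2ac10 stood at 2.83 and 5.75 TPM, the highest log2 fold change of any histone gene (0.82), with a ratio interval of 0.999 to 4.42. H2ac7 stood at 2.65 and 2.89 TPM. H2ac4 stood at 2.08 and 3.001 TPM (0.38), and with H2ac10 it was 1 of the 2 H2A genes above 0.3.

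H3 genes had 1 member past the fold. The median log2 fold change of the 11 genes was -0.08, at the median of all genes tested (-0.07), with 7 below and 4 above 0. That gene was H3c13 (chr3:96268654-96269155, plus strand), at 5.60 TPM (3.60 to 8.31) and 2.19 TPM (1.14 to 3.81), which is 2.56-fold lower (1.24 to 5.56) on 24.3 and 12.3 read pairs. Its log2 fold change of -1.05 became -0.74 with 1 added to FPKM, where its levels were only 2.25 and 0.944 and the added 1 weighs more. After rescaling of TPM it fell just short of the rule. H3c13 shared 77.3% of its words with other genes of the 58, all with H3c14/H3c15. That pair of copies, close by on the same chromosome, stood at 4.83 and 4.69 TPM (-0.04). H3c3, the neighbour of H1f2 (chr13:23745042-23745521, minus strand), went the other way, with 4.82 and 7.84 TPM (0.60) and a ratio interval of 0.934 to 2.92.

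The other 8 H3 genes all had ratio intervals that included 1. H3c1 stood at 6.66 and 6.24 TPM. H3c10 stood at 3.89 and 3.19 TPM. H3c2 stood at 3.60 and 2.77 TPM. H3c6, at 3.40 and 2.40 TPM (-0.37), and H3c7, which has the longest H3 transcript, at 1.69 and 1.07 TPM (-0.38), were the lowest of the 8. H3c4 stood at 2.37 and 2.80 TPM. H3c11 stood at 2.25 and 3.40 TPM. H3c8 stood at 1.35 and 1.87 TPM. These last 3 were above 0, from 0.18 to 0.44.

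H2B genes also had 1 member past the fold. The median log2 fold change of the 15 measured genes was -0.03, with 9 below and 6 above 0, while their sum was 83.3 TPM (76.9 to 90.1) and 68.3 TPM (63.5 to 73.4). H2bc18 (chr3:96269700-96270192, plus strand), which lies next to H3c13, was that member. It stood at 6.08 TPM (3.97 to 8.91) and 2.32 TPM (1.23 to 3.99), 2.62-fold lower (1.29 to 5.58) on 25.9 and 12.8 read pairs. Its log2 fold change was -1.09 with 1 added to TPM. It was -0.78 with 1 added to FPKM, where its levels were only 2.44 and 0.9999 and the added 1 weighs more. H2bc18 shared 0% of its words with other genes of the 58. H2bc4, at 15.6 TPM (12.6 to 19.1) and 8.37 TPM (6.48 to 10.6), was the histone gene nearest the fold without passing it (-0.83), and the interval of its ratio, 0.385 to 0.741, lay below 1. H2bc21 stood at 13.02 TPM (11.6 to 14.6) and 14.7 TPM (13.4 to 16.1), which made it the most abundant H2B gene of the KO-labelled library, and the interval of its ratio of 1.13 (0.973 to 1.31) included 1.

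The remaining H2B genes were within the fold, with ratio intervals that included 1. H2bc8 stood at 15.8 and 11.3 TPM (-0.45). H2bc11 stood at 7.36 and 7.22 TPM. H2bc9 stood at 4.24 and 2.37 TPM (-0.63). H2bc9 and H2bc8 were, after H2bc18 and H2bc4, among the lower H2B genes. H2bc6 stood at 3.84 and 3.79 TPM. H2bc23 stood at 3.58 and 4.44 TPM. H2bc3 stood at 2.37 and 1.28 TPM (-0.56). This gene and the 6 that follow rested on 18.9 read pairs or fewer in each library. H2bc7 stood at 2.28 and 1.68 TPM. H2bc15 stood at 2.04 and 2.40 TPM. H2bc12, at 2.03 and 3.40 TPM, was the highest H2B gene (0.54). H2bc14 stood at 1.94 and 1.31 TPM. H2bc13 stood at 1.85 and 2.26 TPM. H2bc22 stood at 1.28 and 1.45 TPM, the lowest level of the measured H2B genes in the wild-type-labelled library.

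Some H2B genes are annotated with a transcript that is longer or spliced, and such transcripts can be polyadenylated. There were 5: H2bc4, H2bc6, H2bc21, H2bc22 and H2bc23. The stem-loop lies inside the longer transcripts of H2bc6 and in the intron of that of H2bc22, and no loop was found in the transcripts of the other 3, some of which were not read to the end. Over these 5 the log2 fold changes had a median of 0.11, against -0.22 for the 50 other measured histone genes. The difference was not tested, and 4 of the 5 were above -0.02. H2bc21 has a single exon of 2667 bases (chr3:96221072-96223738) with AATAAA, the polyadenylation signal, within its last 40 bases. In H2bc4, the short transcript stood at 2.30 TPM and 0.258 TPM, on 9.33 and 1.35 read pairs, a ratio of 0.112 (0.00573 to 0.667). Its longer, spliced transcript held most of the gene's level, with 13.3 TPM (10.6 to 16.5) and 8.11 TPM (6.27 to 10.3), a ratio of 0.609 (0.434 to 0.851). The second exon of that transcript, at chr13:23692176-23692480, which the short transcript lacks, stood at 10.3 and 7.43 TPM-equivalents, a ratio of 0.723 (0.404 to 1.29). Both forms of H2bc4 were thus below 1, the longer one nearer to it than the gene as a whole (0.536).

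**Figure D2:**
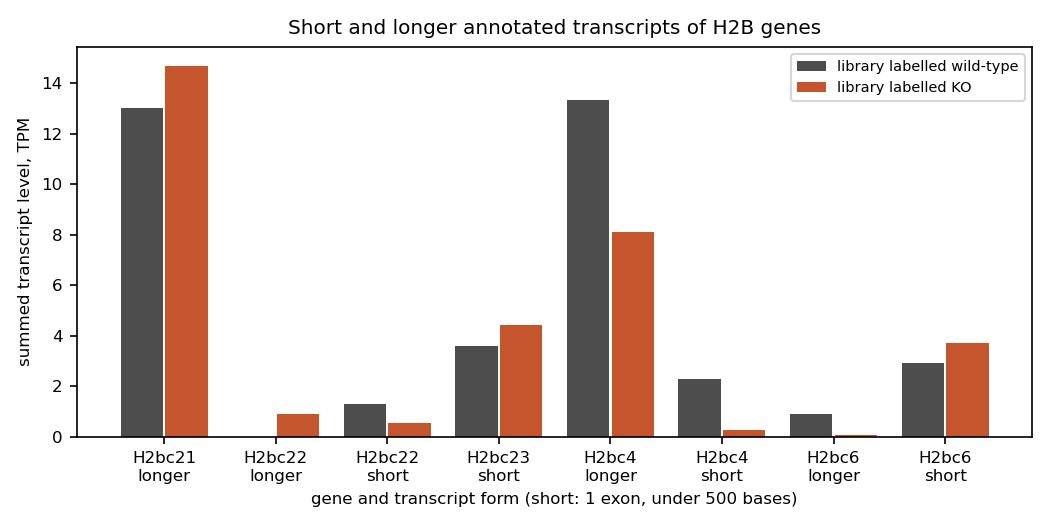
Level (TPM) of the short (1 exon, under 500 bases) and longer annotated transcripts of 5 H2B genes in the wild-type-labelled library (grey) and the KO-labelled library (orange), without error bars. The longer form holds most of the level in H2bc21 and H2bc4, and forms at 0 in both libraries are not drawn.

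The longer forms of H2bc6 and H2bc22 were read at low depth. In H2bc6, the longer transcript stood at 0.899 TPM and 0.0694 TPM, on 19.5 and 1.94 read pairs, a ratio of 0.0772 (0.00833 to 0.324). The short one stood at 2.94 and 3.72 TPM. The 3' exon of that longer H2bc6 transcript held 19.5 and 0 read pairs, but it overlaps the short transcript, so the assignment of reads to it is the quantification's own. The 5' exon at chr13:23620916-23621124, which the short transcript lacks, went the other way, with 0.0099 and 1.94 read pairs, so the direction of the longer form of H2bc6 is uncertain. In H2bc22, the longer transcript was listed at 0 in the wild-type-labelled library and stood at 0.905 TPM, on 6.00 read pairs, in the KO-labelled library. No longer transcript of H2bc23 had any coverage.

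By class, the H1 and H4 sums were lower in the KO-labelled library and the ratio intervals of H2A and H3 included 1. H1 summed to 77.5 TPM (70.9 to 84.7) and 29.6 TPM (26.0 to 33.5), 2.62-fold lower (2.25 to 3.07). H4 summed to 90.1 TPM (80.3 to 101) and 52.2 TPM (45.7 to 59.3), 1.73-fold lower (1.45 to 2.06). Without H4c9, the most abundant, the H4 sum was 50.7 and 33.4 TPM, a ratio of 0.660 (0.526 to 0.827). That sum still held H4c17/H4c18, at 19.5 and 5.86 TPM. Each of the remaining H4 genes had a ratio interval that included 1, and a sum without both was not taken. The H2B ratio was 0.820 (0.736 to 0.914), that of H2A 0.908 (0.795 to 1.04) and that of H3 0.951 (0.779 to 1.16). The H2A interval depends on the symbol rule, since with H2aw, a gene outside it, the H2A ratio was 0.800 (0.722 to 0.886). The H3 ratio turned to 1.02 in FPKM and was 0.998 after rescaling, and the other class ratios stayed below 1 in FPKM and after rescaling. H1 made up 20.2% of the summed histone level in the wild-type-labelled library and 10.8% in the KO-labelled library, H4 23.4% and 19.1%, H2A 24.2% and 31.0%, H2B 21.7% and 25.0%, and H3 10.5% and 14.1%.

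**Figure D3:**
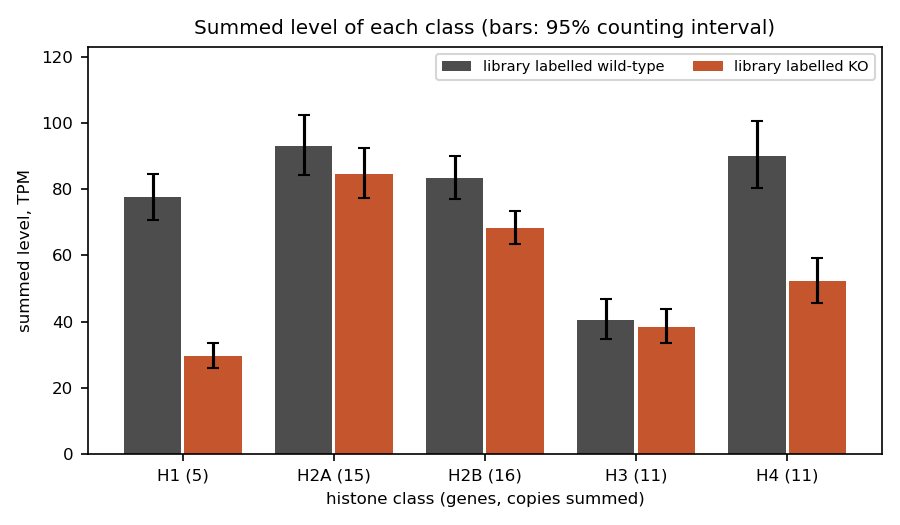
Summed TPM of the genes of each histone class in the wild-type-labelled library (grey) and the KO-labelled library (orange), with 95% exact Poisson counting intervals as bars; the number of genes, copies summed, is in brackets. The H1 bars are 77.5 and 29.6 TPM and the H4 bars 90.1 and 52.2 TPM, while the intervals of the H2A and H3 bars overlap.

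A few abundant genes carried most of the difference. Of the difference between the summed levels, H1f2 made up 31.5%, and H4c9, H4c17/H4c18, H1f3 and H2bc4 brought the running total to 50.1%, 62.3%, 69.7% and 76.2%. Of the 7 genes with a mean of at least 10 TPM, 6 were below 0, 3 were past the fold, and the median log2 fold change was -0.83. The 9 genes with a mean of 5 to 10 TPM had a median of 0.01, and the 39 measured genes under 5 TPM one of -0.22, so there was no steady order with level. At these low levels few single genes can be told apart: 8 of the 55 ratio intervals lay below 1 and 0 above 1. Over all genes tested, whose median level was 30.3 and 28.2 TPM against 3.86 and 3.08 TPM for the histone genes, 35% lay below and 16.3% above. The 8 were the 6 genes past the fold, H1f4 and H2bc4.

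**Figure D4:**
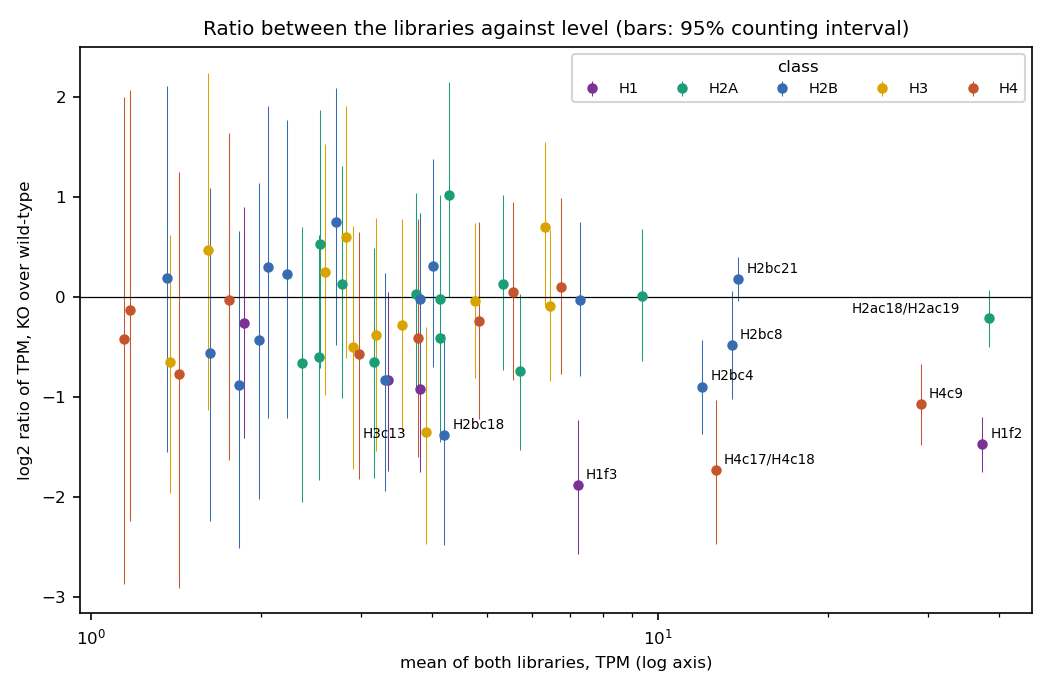
Log2 ratio of TPM, KO-labelled over wild-type-labelled library, against the mean TPM of both libraries (log axis) for the 55 measured histone genes, coloured by class, with 95% exact binomial counting intervals as bars. Intervals are wide below 5 TPM, and among the abundant genes H1f2, H4c9 and H4c17/H4c18 lie below 0 while H2ac18/H2ac19 and H2bc21 lie near it.

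Near-identical sequence limits how far single genes can be read. The 33 genes that shared over 50% of their 50-base words with other genes of the 58 lay at a median log2 fold change of -0.03. The 22 measured genes that shared 50% or less lay at -0.40. The genes that shared less with the other histone genes thus lay lower, and the H1 genes are among them. The genes of chromosome 3 had a median of -0.45 (7 measured) and those of chromosome 13 one of -0.18 (48 measured).

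Many H2A and H2B genes stand head to head and start from a shared promoter region. Of 11 such pairs, whose starts were 168 to 306 bases apart, 10 had both genes measured. Both members were below 0 in 2 of them, both were above 0 in 2, and the signs were opposite in 6. The pairs below 0 were H2ac8 with H2bc8 (-0.63 and -0.45) and H2ac6 with H2bc4 (-0.49 and -0.83). Of the genes in these 10 pairs only H2bc4 had a ratio interval that left out 1, so most of these signs are within counting error. Whether the members of a pair share a direction was not tested and cannot be read from them.

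Of the factors that make and remove histone mRNA, none of 25 measured passed the fold, with 13 below and 12 above 0, and a median log2 fold change of -0.01. SLBP, which binds the stem-loop and itself builds up in S phase, had more mRNA in the KO-labelled library: Slbp stood at 75.1 and 99.9 TPM (0.41), a ratio of 1.33 (1.24 to 1.43). The components of the U7 particle and the cutting complex were mixed. Lsm10 stood at 36.1 and 37.8 TPM. Lsm11 stood at 9.55 and 7.77 TPM (-0.27). Zfp473 stood at 3.07 and 3.66 TPM. The U7 RNA gene Rnu7 was listed at 0 in both libraries. Of the shared cleavage factors, Cpsf2 stood at 36.1 and 37.1 TPM. Cpsf3, the nuclease, stood at 89.1 and 88.7 TPM. Sympk stood at 109 and 87.0 TPM (-0.32). Cstf2 stood at 66.7 and 65.0 TPM, and only Sympk of these 4 was below -0.1. Casp8ap2, which encodes FLASH, stood at 42.4 and 38.8 TPM.

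Regulators of histone gene transcription and of S phase entry lay on both sides of 0. Npat, the cyclin E target that activates histone genes, stood at 23.9 and 20.3 TPM (-0.23). Hinfp, which acts on H4 promoters, stood at 45.7 and 35.1 TPM (-0.37). Pou2f1, which encodes Oct-1 and acts on the H2B octamer, stood at 23.7 and 16.6 TPM (-0.49). All 3 were below 0 and none passed the fold. The cyclin genes that start S phase were above 0: Ccne1 stood at 9.68 and 14.9 TPM (0.57) and Ccne2 at 4.30 and 6.64 TPM (0.53). Cdk2 stood at 97.0 and 101 TPM. E2f1, at 7.36 and 11.8 TPM (0.61), was the highest of the list.

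Factors of cap binding and decay were also within the fold. Ncbp1 stood at 162 and 164 TPM. Ncbp2 stood at 53.6 and 63.2 TPM. Srrt, which encodes ARS2, stood at 328 and 280 TPM (-0.23). Upf1, a helicase needed for histone mRNA decay, stood at 125 and 99.1 TPM (-0.34). The uridylating enzyme gene Tut4, at 66.4 and 46.8 TPM, was the lowest of the list (-0.50), and Tut7 stood at 105 and 87.3 TPM (-0.27). Eri1, whose product trims the stem-loop, stood at 41.2 and 42.6 TPM. Lsm1 stood at 34.8 and 37.9 TPM. Dis3l2 stood at 31.1 and 29.0 TPM. Of the decay factors, Lsm1 had the highest log2 fold change, 0.12.

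The medians of the cell cycle genes lay on the other side of 0 from that of the histone genes. Of 38 genes of S phase entry and replication, 37 were above 0, with a median log2 fold change of 0.48 and 1 past the fold. Of 28 genes of mitosis 27 were above 0, with a median of 0.78 and 4 past the fold. Of all 12027 genes tested, 4633 were above 0 and 78 were higher by the fold. Rrm2, which makes the building blocks of DNA, stood at 50.5 TPM and 112 TPM (1.13). Birc5, a mitotic regulator, stood at 35.7 and 103 TPM (1.51). Over the same libraries the median of the 55 histone genes was -0.21, and 18 of them were above 0. The part of the cell cycle difference in the histone values was not tested.

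**Figure D5:**
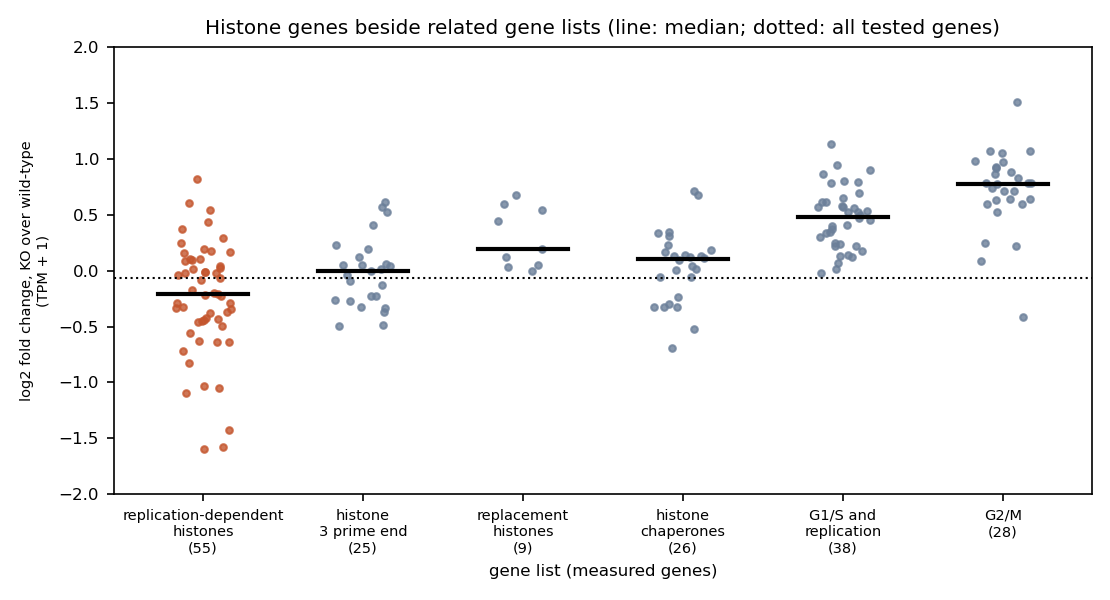
Log2 fold change on the (TPM + 1) scale, KO-labelled over wild-type-labelled library, of each measured gene of the replication-dependent histones and of 5 related lists, with the number of genes in brackets, the list's median as a line and the median of all genes tested as a dotted line. The histone median of -0.21 lies below the dotted line at -0.07 and the medians for replication (0.48) and mitosis (0.78) lie above it.

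Replacement histones, whose mRNA is mostly polyadenylated, had a median above 0, where that of the replication-dependent ones was below 0. Of 9 measured, 8 were above 0, against 4633 of all 12027 genes tested. The median was 0.20, with none past the fold. H2bu2 and H4f16 were moved out of this list after the tables were seen; with them 8 of 11 were above 0 and the median was 0.12. H2ax, whose product marks DNA breaks, stood at 134 TPM and 203 TPM (0.59). Cenpa, the centromeric H3, stood at 56.0 and 81.8 TPM (0.54). H1f10 stood at 4.995 and 8.56 TPM (0.67) and was the highest. The replacement linker histone H1f0, at 60.0 and 59.7 TPM (-0.01), was the only one of the 9 below 0, at a ratio of 0.995 where the replication-dependent H1 sum had one of 0.381. H3f3a, the most abundant of the 9, stood at 1954 and 2241 TPM, and all replication-dependent H3 genes together at 40.5 and 38.5 TPM. H3f3a mRNA has a poly(A) tail and most of theirs lacks one. A kit that selects by the tail would capture them unequally, so the gap does not give their relative abundance in the cells.

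Histone chaperones, which carry and deposit the proteins, numbered 26, with a median log2 fold change of 0.10, 17 above and 9 below 0, and none past the fold. The highest were Asf1b, at 30.1 and 49.8 TPM (0.71), and Chaf1a, at 10.5 and 17.4 TPM (0.67), both of the replication-coupled route. The lowest was Hjurp, the chaperone of CENP-A, at 50.02 and 30.6 TPM (-0.69).

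The labels name the library kit but no selection step. Kits of this kind are known to select RNA by its poly(A) tail, which most replication-dependent histone mRNA lacks, so other RNAs known to have no tail are given beside the histone genes. Of 8 such genes matched, 5 were measured, all 5 were below 0, and the median log2 fold change was -0.25. Rpph1, the RNA of RNase P, stood at 10.1 TPM and 7.09 TPM (-0.46). Rmrp stood at 8.25 and 7.16 TPM (-0.18). Rnu11, at 9.98 and 0.345 TPM on 9.33 and 0.416 read pairs, was the only one past the fold, with a ratio of 0.0346 (8.13e-06 to 0.471). Vaultrc5 stood at 2.01 and 1.54 TPM and Terc at 1.02 and 0.886 TPM. The ratio intervals of the 4 genes other than Rnu11 all included 1. The summed level of the list was 31.9 and 17.5 TPM, and 21.9 and 17.1 TPM without Rnu11, and the list's part in the histone values was not tested.

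Outside the list of current symbols used here lie 3 genes with former Hist3h or Hist4h names, at other places of the genome. The annotated transcript of each holds a 16-base stem-loop that ends 5 to 8 bases before its 3' end. None has AATAAA in its last 40 bases. In both libraries H2aw was more abundant than any of the 58 genes. H2aw stood at 71.8 TPM (64.1 to 80.1) and 47.3 TPM (41.8 to 53.3) (-0.59). H2bu2 stood at 43.7 and 34.0 TPM (-0.35). H4f16 stood at 1.98 and 1.42 TPM (-0.30). All 3 were below 0, and with them the median over 58 genes was -0.22. With H2aw counted, the H2A sum became 165 TPM (153 to 177) and 132 TPM (123 to 142). The ratio of the sum over all classes was 0.709 (0.670 to 0.750) with the 3 genes.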

How the data were processed

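RNA of CD69+ DP thymocytes was measured in 2 libraries, 1 per genotype. Trizol extraction and 1 ug of total RNA in the TruSeq RNA Sample Prep Kit v2 were used, per the labels' protocols. The strand setting of the counting has no statement in the labels or headers, so overlapping and near-identical genes are uncertain. Per the submitters' processing notes, HISAT2 and the build mm10 (GRCm38) were used, with no version of HISAT2 named. The authors, per the file headers, quantified RefSeq transcripts with StringTie 1.3.3b without new transcripts, and deposited coverage (a signal, mean read depth per base, not scaled to library size), FPKM and TPM per gene. The deposited transcript files hold the same values per transcript, and coverage per exon, as attribute text.

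Gene IDs (24532, of which 24462 matched) were named from the RefSeq table of GRCm38.p6. TPM keeps no depth, so read pairs were estimated as covered bases divided by 202 (2 mates of 101 bases): 26.5% and 27.4% of transcripts with few reads lay within 2 bases of a multiple of 202, against 2.48% by chance. Fold changes are log2 of (TPM + 1) for genes that reached 1 TPM or more in either library, a scale that understates changes of low genes, and a size of 1 or more is a rule of size, not a test. Intervals are 95% exact Poisson for levels and exact binomial (Clopper-Pearson) for ratios. PCR copies are not independent molecules, so the intervals cover counting error only. Shared sequence counts each transcript's 50-base words and gives the percent of them also present in the GENCODE M21 transcripts of other genes (both strands).

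The members and lists were chosen with earlier results of these data known. By the naming rule, every member with at least 1 TPM is named with its value in both libraries (copies summed), as is every such gene of the list of histone mRNA factors; from other lists at most the 3 highest and 3 lowest are named. H3f3a was named after its values were seen. List names were matched by symbol only, and 26 were not matched. After the tables were seen, H4f16 and H2bu2 were moved from the replacement histones to a list with H2aw. Alternatives were the pseudocount, filters on low values, FPKM (also with 1 added for fold changes), rescaling by the median ratio, copies taken separately and leaving out genes. The software was Python 3.11.15, scipy 1.17.1, numpy 2.4.6, matplotlib 3.10.9 and pandas 2.3.3, and the fold rule was tested on simulated data.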

Additional observations from a re-analysis of the deposited data

How the results depend on the processing

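The median log2 fold change of the histone genes (-0.21) stayed below 0 in all 10 alternatives run, from -0.40 without genes that share over 50% of their words to -0.10 in FPKM; the median of all genes tested was -0.07 in TPM and 0.02 in FPKM. The count of lower genes was 6 in TPM and 3 in FPKM (H1f2, H1f3 and H4c17/H4c18) and 4 after rescaling (those 3 and H2bc18). As with TPM, 1 was added to FPKM before the log. The FPKM values of these genes were smaller than their TPM values, so the added 1 weighs more on low genes there. With gene IDs taken separately, 7 were lower and 1, H2ac19, was higher. The ratio of the summed level was 0.710 in TPM (0.667 to 0.756) and 0.761 in FPKM, which lies outside that interval. Adding the former Hist3h and Hist4h genes, leaving out H1 (median -0.14) and keeping only genes under 5 TPM (-0.22) were chosen after seeing the data. With those Hist3h and Hist4h genes the H2A ratio went from 0.908 (0.795 to 1.04) to 0.800 (0.722 to 0.886). Of 165 values of single genes under an alternative, 0 left their counting interval and 0 called genes changed sign. These alternatives reuse the same counts with another added value or scale, and the intervals of low genes are wide. Such an outcome was therefore likely beforehand and says little. Even so, H4c9 and H3c13 no longer passed the fold in FPKM or after rescaling, nor did H2bc18 in FPKM. No paired analysis was possible because there is 1 library per group, and no replicate could be left out for the same reason. Depth limits most single genes: 39 of the 55 had a mean under 5 TPM.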

Other observations

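Other gene classes defined by structure give the setting of the histone values. The 687 other protein-coding genes whose longest transcript has 350 to 950 bases, a range that leaves out H2bc6, H2bc21 and H2bc23, had a median log2 fold change of 0.14, with 8 lower and 3 higher by the fold. The 194 other protein-coding genes with a single exon had a median of -0.05, with 2 lower and 1 higher. Genes under 200 bases, mostly small RNAs, had a median of -0.27 over 391 genes, and 77 were lower and 21 higher, at a median level of 4.84 TPM under the wild-type label and 3.56 TPM under the KO label.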
